A study of Gallus gallus with 12 samples.

Results

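The heat shock and immediate early genes considered here were HSP90AA1, HSPH1, HSPA2, HSPA5, HSPA8, FOS and JUN, followed in the chick embryo, in the midbrain (m) and in 5 rhombomeres, the swellings that divide the early hindbrain along its length (r1 to r5). Every probe set that the array annotation assigned to 1 of these 7 symbols was taken. This gave 9 of the 38439 probe sets that are not controls, and 7 of the 13009 genes that carried a symbol of their own: HSP90AA1 and HSPH1 had 2 probe sets each and the others had 1. RNA was measured on 12 Affymetrix Chicken GeneChips, with 2 arrays per region. The 2 arrays, denoted set 1 and set 2, held separate pools of tissue from embryos at HH10 to HH11 (Hamburger and Hamilton stages of chick development). No genetic change or drug distinguished the groups, so that region was the only factor. All 6 regions went through the same dissection, in which Dispase (a protease, 1 mg/ml for 15 min per the labels) loosened the neural tube before the ectoderm and mesoderm were peeled off and the segments were cut apart. Each array therefore averaged over many embryos and over every cell type of a segment. No tissue spared the dissection was among these arrays, and a response shared by all regions cannot be told apart from the ordinary level of these genes. What could be compared was whether the level of these genes differed by region. A regional difference in a response to the dissection cannot be told apart from one in ordinary level.

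Heat shock proteins are chaperones that hold unfolded or damaged proteins and help them to refold. When proteins are damaged, heat shock factors switch on the stress-inducible members, while other members are made at all times. HSP90AA1 encodes the inducible cytosolic form of HSP90, HSPH1 encodes HSP110, which recharges HSP70 with nucleotide, and HSPA8 encodes HSC70, the constitutive cytosolic HSP70. HSPA2 is the symbol that the annotation gave to the gene for which RefSeq lists the synonym HSP70. HSPA5 encodes BiP (GRP78), the HSP70 of the endoplasmic reticulum (ER), which rises in the unfolded protein response. FOS and JUN encode partners of the AP-1 transcription factor. They are immediate early genes, whose transcripts rise within minutes of growth factor stimulation, wounding or tissue dissociation and are short-lived. Both families are known to respond to the handling of tissue, and heat shock genes are also transcribed in the undisturbed embryo.

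The signals were MAS5 intensities that the authors had not brought to a common level, and the array medians ran from 2.27 (r3 set 1) to 9.67 (r1 set 1). Each array was scaled to a median of 5.90 unless said otherwise, so that a scaled signal says how bright a probe set was relative to the middle of its own array. Signals of different probe sets were not set against each other, since probes differ in brightness. The r3 arrays stood apart. On them, the probe sets at the 3′ end of the control transcripts (beta-actin, GAPDH and EF1a) exceeded those at the 5′ end by a mean of 7.13 and 6.12 on the log2 scale, against 1.28 to 2.07 in m, r1 and r2 and 2.08 to 4.05 in r4 and r5. This ratio is a usual sign of how far along the transcript the labelled cDNA reached. Of the 21731 probe sets tested, 39.7% were lower in r3 than in the mean of the other regions and 7.12% were higher (limma, Benjamini-Hochberg adjusted p under 0.05 over all probe sets, here called a change).

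Of the 9 probe sets, 7 passed the filter on low signals (above the array median on both arrays of at least 1 region). FOS and the second probe set of HSPH1 did not. The level differed among the 6 regions for 5 of the 7 (limma F test, adjusted p of 0.0352 or lower) against 34.9% of all probe sets. These 5 were HSPA2, both probe sets of HSP90AA1, HSPH1 and HSPA8, and the other 2 were HSPA5 and JUN. With every region compared in turn with the average of the remaining 5, 1 of 7 was higher in m (HSPA2), where 6.33% of all probe sets were higher, and 0 of 7 were lower, where 2.16% were. In r1, 1 of 7 was higher (HSPA2; background 1.65%) and 0 were lower (background 0.612%). In r3, 4 of 7 were lower, against the 39.7% of all probe sets, and 1 of 7 was higher, against 7.12%. No call was made in r2 (background 0.29% higher and 0.106% lower), in r4 (0.69% and 0.456%) or in r5 (1.14% and 0.566%). At an unadjusted p under 0.05, limma gave 2 of 7 in r2, 1 of 7 in r4 and 0 of 7 in r5. The share of all probe sets at that unadjusted cut was not counted, so these counts have no background beside them. With m and r1 together against r2 to r5, 2 of 7 were higher (HSPA2 and JUN), where 20% of all probe sets were higher, and 1 of 7 was lower (1 probe set of HSP90AA1), where 5.68% were. The median log2 fold change of the 7 lay near that of all probe sets in r3 (−0.60 against −0.63) and in m and r1 together (0.26 against 0.27). In the other contrasts it was 0.177 against 0.222 in m, 0.103 against 0.241 in r1 and −0.222 against 0.177 in r2. It was 0.191 against 0.058 in r4 and 0.045 against 0.063 in r5. The heat shock and immediate early genes did not move as a block, and they are described one by one.

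**Figure D1:**
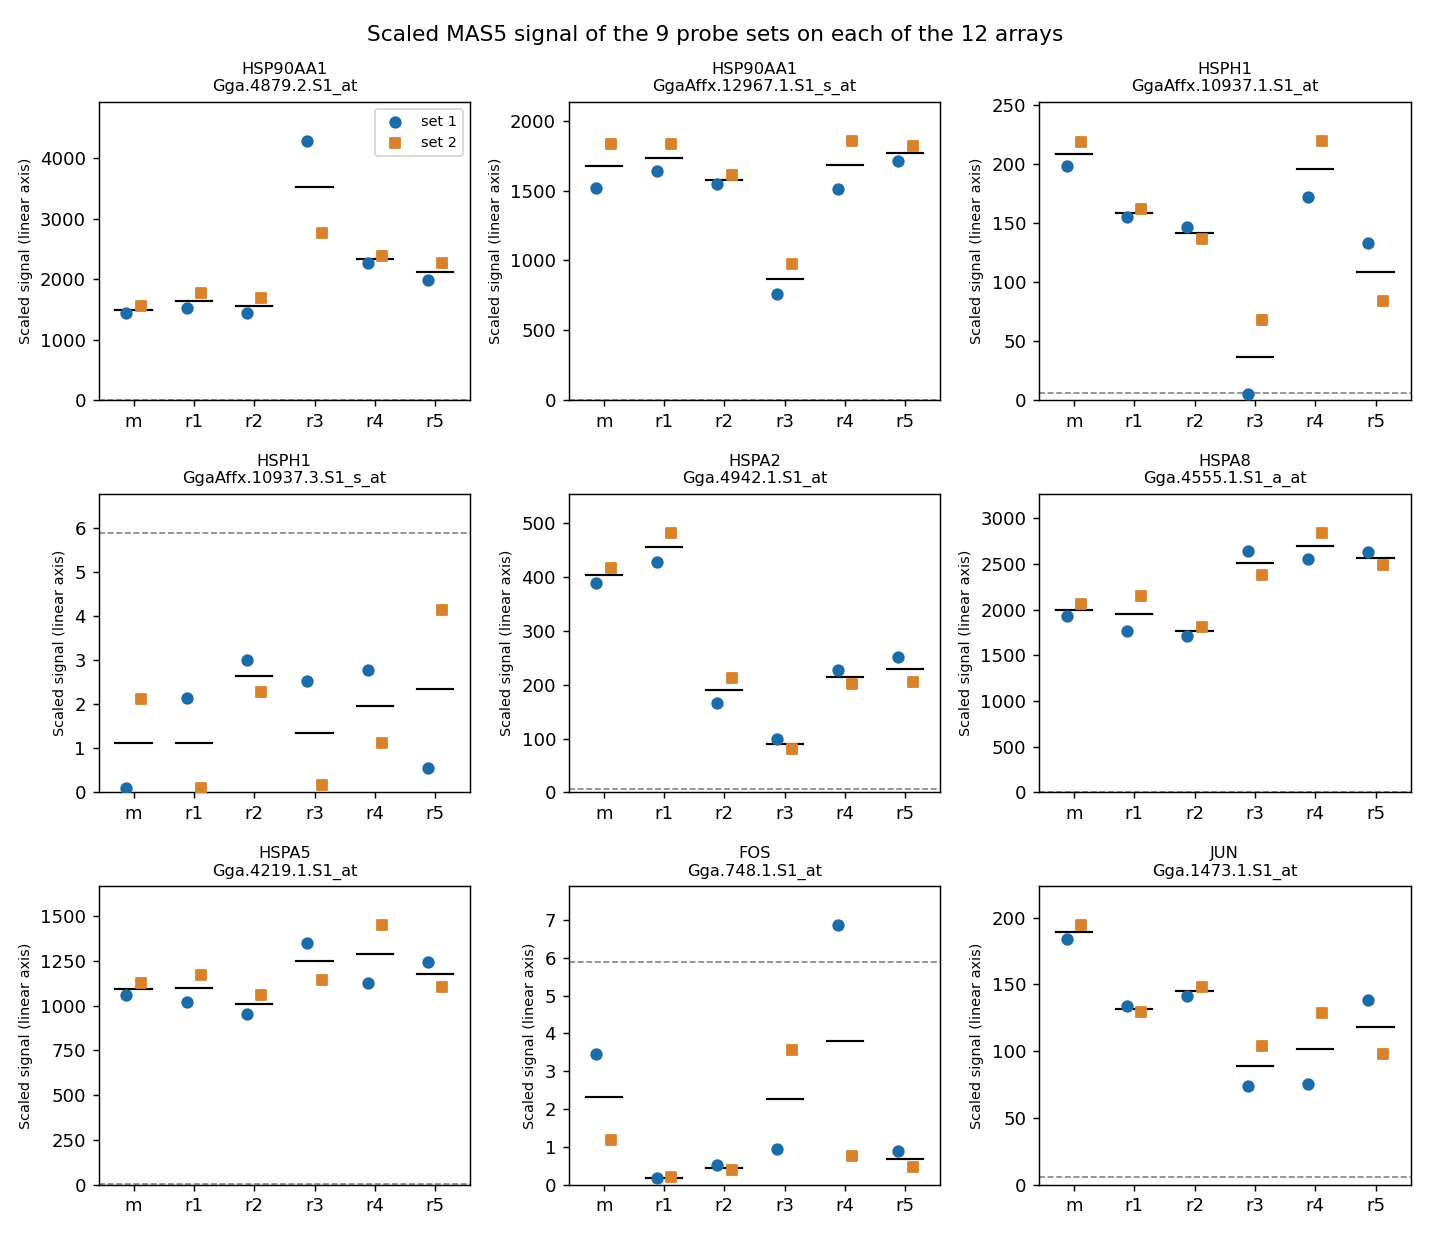
Scaled MAS5 signal (linear axes from 0, each panel on its own scale) of the 9 probe sets in m and r1 to r5; circles are set 1, squares are set 2, bars are means of the 2 arrays, and the dashed line is the array median of 5.90. HSPA2 was higher in m and r1 than in the other regions, the 2 probe sets of HSP90AA1 parted in r3, and FOS and the second HSPH1 probe set lay near or under the array median.

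HSPA2, known here as an HSP70 gene by its RefSeq synonym alone, had the lowest F test p of the 7 probe sets. Its scaled signal was 389 and 417 in m, 428 and 481 in r1, 167 and 212 in r2, 99.7 and 80.2 in r3, 227 and 200.5 in r4, and 252 and 204 in r5 (set 1 and set 2). All 4 arrays of m and r1 lay above all 8 arrays of r2 to r5, and both r3 arrays lay below the other 10. The mean was 455 ± 37.6 in r1 and 403 ± 19.8 in m (SD, n = 2 each), fell to between 189 and 228 in r2, r4 and r5, and was 89.9 ± 13.8 in r3, so that the highest and lowest regions differed by a factor of 5.06. In descending order the regions ran r1, m, r5, r4, r2 and r3. The pairs r5 and r4, and r4 and r2, overlapped between their arrays, while the other neighbours did not. The F test gave an adjusted p of 1.05e-04. HSPA2 was 2.26-fold higher in r1 than in the mean of the other regions (log2 fold change 1.18, SE 0.16, adjusted p = 0.00337) and 1.96-fold higher in m (0.97, SE 0.16, adjusted p = 0.00472), while r3 was 3.11-fold lower (−1.64, SE 0.16, adjusted p = 1.59e-05). With m and r1 together against r2 to r5 the difference was 2.53-fold (1.34, SE 0.13, adjusted p = 4.97e-05). In pooled tissue, fewer cells of a type and less RNA per cell cannot be told apart.

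Part of the HSPA2 contrast came from r3 being low, and it was smaller without that region. When both r3 arrays were left out, HSPA2 was 1.03 higher on the log2 scale in m and r1 than in r2, r4 and r5 (adjusted p = 2.5e-05), and against the other 4 regions it was 0.88 higher in r1 (adjusted p = 0.00245), 0.67 higher in m (adjusted p = 0.00785), 0.71 lower in r2 and 0.48 lower in r4 (adjusted p = 0.0191 and 0.0271). Within m, r1 and r2, whose control transcripts had like 3′ to 5′ ratios, m and r1 exceeded r2 by 1.19 (adjusted p = 0.00018). Over the 25 other ways of processing tried, the F test of HSPA2 stayed past the threshold in each (adjusted p 4.95e-06 to 0.00913). The calls in m alone and in r1 alone were lost when either array of that region was left out (adjusted p = 0.106 and 0.149 in m, 0.0917 and 0.161 in r1).

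HSP90AA1 gave 2 answers. Its first probe set, whose name begins with Gga, read 1435 and 1552 in m, 1523 and 1770.5 in r1, 1438 and 1689 in r2, 4288 and 2763 in r3, 2273 and 2386 in r4, and 1990.2 and 2264 in r5. Both r3 arrays lay above the other 10, followed by r4 and r5, whose 4 arrays lay above the 6 of m, r1 and r2. The difference in r3 was 1.91-fold (log2 fold change 0.94, SE 0.16, adjusted p = 5.74e-04), and m and r1 were lower than r2 to r5 by 0.54 on the log2 scale (SE 0.13, adjusted p = 0.00992). The second, whose name begins with GgaAffx and ends in s_at, read 1516 and 1832 in m, 1637 and 1830.0 in r1, 1548 and 1610 in r2, 761 and 975 in r3, 1512 and 1856 in r4, and 1715 and 1816 in r5. Here both r3 arrays lay below the other 10. Of the remaining regions, r2 lay below r1 and r5, and the other pairs overlapped. It was 1.95-fold lower in r3 (log2 fold change −0.97, SE 0.14, adjusted p = 2.09e-04). The suffix s marks, by the maker's naming, probes that match more than 1 transcript.

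The 2 probe sets of this 1 gene moved in opposite directions on the same arrays. The deposited signal of the first was divided by that of the second. Multiplying all signals of an array by 1 factor cannot alter this ratio. It was 0.848 to 1.05 on the 6 arrays of m, r1 and r2, and 5.63 and 2.83 in r3. In r4 and r5 it lay between these, at 1.16 to 1.5. The 3′ to 5′ ratio of the control transcripts was likewise highest in r3 (7.13 and 6.12 on the log2 scale) and next in r4 (4.05 and 3.56). Over the 12 arrays the scaled log2 signal of HSP90AA1 followed that control ratio with r = 0.94 for the first probe set and −0.84 for the second, arrays of a region and their depth of labelling being shared, so this is a description. The other tested genes also moved with that ratio. Their r was −0.80 for HSPA2, −0.76 for HSPH1, −0.75 for JUN, 0.67 for HSPA8 and 0.61 for HSPA5. Where in the transcript each probe set lies was not given in the sources used here. The part of the control ratio in the HSP90AA1 result, or in those of the other genes, was not tested. Such disagreement was not peculiar to HSP90AA1: of the 4356 genes with more than 1 tested probe set, 399 (9.16%) had 1 called higher and 1 called lower in r3. In m and r1 together 107 (2.46%) had, in m alone 5 (0.115%), and in r1, r2, r4 or r5 0. Few probe sets of any gene were called in r1, r2, r4 and r5, so a count of 0 there does not show that probe sets agreed. Without r3 the F test of the second probe set gave an adjusted p of 0.896 and that of the first 0.0136, with r4 higher by 0.47 on the log2 scale (adjusted p = 0.0131). No direction in r3 is therefore given for the gene.

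**Figure D2:**
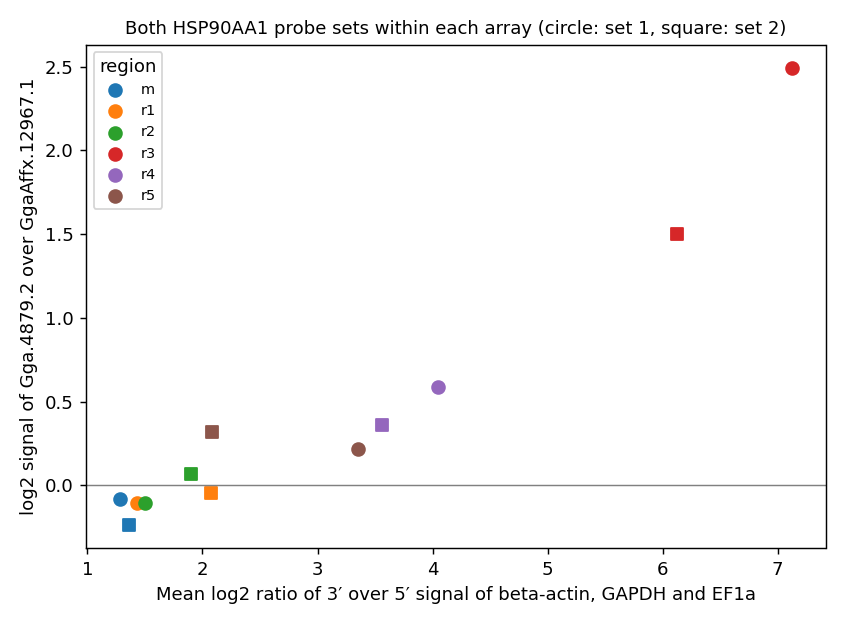
Log2 of the ratio between the 2 HSP90AA1 probe sets (first over second, vertical axis) against the mean log2 3′ to 5′ ratio of the control transcripts (horizontal axis), 1 point per array. The r3 arrays stand at 2.49 and 1.5 on the vertical axis and beyond 6 on the horizontal one, apart from the other 10.

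HSPH1, the HSP110 gene and a partner of HSP70, was low in r3. Its brighter probe set read 198 and 218 in m, 155 and 162 in r1, 147 and 136 in r2, 5.46 and 67.8 in r3, 172 and 219 in r4, and 133 and 83.7 in r5. Both r3 arrays lay below the other 10, yet they differed from each other more than any other pair did, with set 1 under the array median. The log2 fold change in r3 was −3.03 (SE 0.61, adjusted p = 0.00156), and it ran from −4.85 to −1.21 when 1 array was left out in turn, so that its size rested on which r3 array was counted. The F test gave an adjusted p of 0.0283 with all arrays and passed the threshold in 2 of the 12 fits that left out 1 array, namely those without an r3 array. With both r3 arrays left out it gave 0.0227, with r5 lower by 0.72 on the log2 scale (adjusted p = 0.0182). The second probe set read 0.0926 to 4.14, under the array median on all 12 arrays, and was not tested.

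The constitutive HSPA8, and HSPA5, which rises in the unfolded protein response, varied little. HSPA8 (HSC70) read 1931 and 2064 in m, 1763 and 2149 in r1, 1713 and 1813 in r2, 2645 and 2375 in r3, 2560.1 and 2841 in r4, and 2636 and 2488 in r5. All 6 arrays of r3 to r5 lay above the 6 of m, r1 and r2. The highest and lowest region means differed by a factor of 1.53 (F test adjusted p = 0.0352), which passed the threshold in 4 of the 12 fits with 1 array left out. No contrast of HSPA8 passed: it was 0.34 higher in r4 (adjusted p = 0.239) and 0.25 lower in m and r1 than in r2 to r5 (adjusted p = 0.0786), although r4 was higher by 0.40 (adjusted p = 0.0246) once r3 was left out. HSPA5 (BiP), the HSP70 of the ER, read 1061 and 1125 in m, 1022 and 1170.1 in r1, 954 and 1061 in r2, 1352 and 1141 in r3, 1125 and 1450 in r4, and 1245 and 1106 in r5. The arrays of r2 lay below those of m, r3, r4 and r5, those of m lay below r3, and the other pairs of regions overlapped. The means differed by a factor of 1.28, and the F test gave an adjusted p of 0.545.

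JUN was the immediate early gene that could be measured. It read 184 and 194 in m, 134 and 129 in r1, 142 and 148 in r2, 74.2 and 104 in r3, 75.1 and 128 in r4, and 138 and 97.7 in r5. Both m arrays lay above the other 10, with a mean of 189 ± 7.30 (SD, n = 2), while r3, r4 and r5 overlapped. The F test missed the threshold (adjusted p = 0.0623), as did m against the other regions (log2 fold change 0.73, adjusted p = 0.0597). JUN was 0.60 lower in r3 (adjusted p = 0.0423), a shift close to the median of all probe sets there, and 0.52 higher in m and r1 together (adjusted p = 0.0444). Each of these 2 calls held in 4 of the 12 fits that left out 1 array. Within m, r1 and r2 alone, the difference between m with r1 and r2 was 0.12 (adjusted p = 0.58).

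FOS was dim everywhere. It read 3.47 and 1.18 in m, 0.166 and 0.198 in r1, 0.513 and 0.375 in r2, 0.953 and 3.55 in r3, 6.87 and 0.756 in r4, and 0.878 and 0.475 in r5. Only r4 set 1 reached above the array median, and its partner r4 set 2 did not. FOS was therefore not tested, and this probe set gave no regional difference that could be read. A probe set dimmer than the array median does not show that the transcript was absent.

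**Figure D3:**
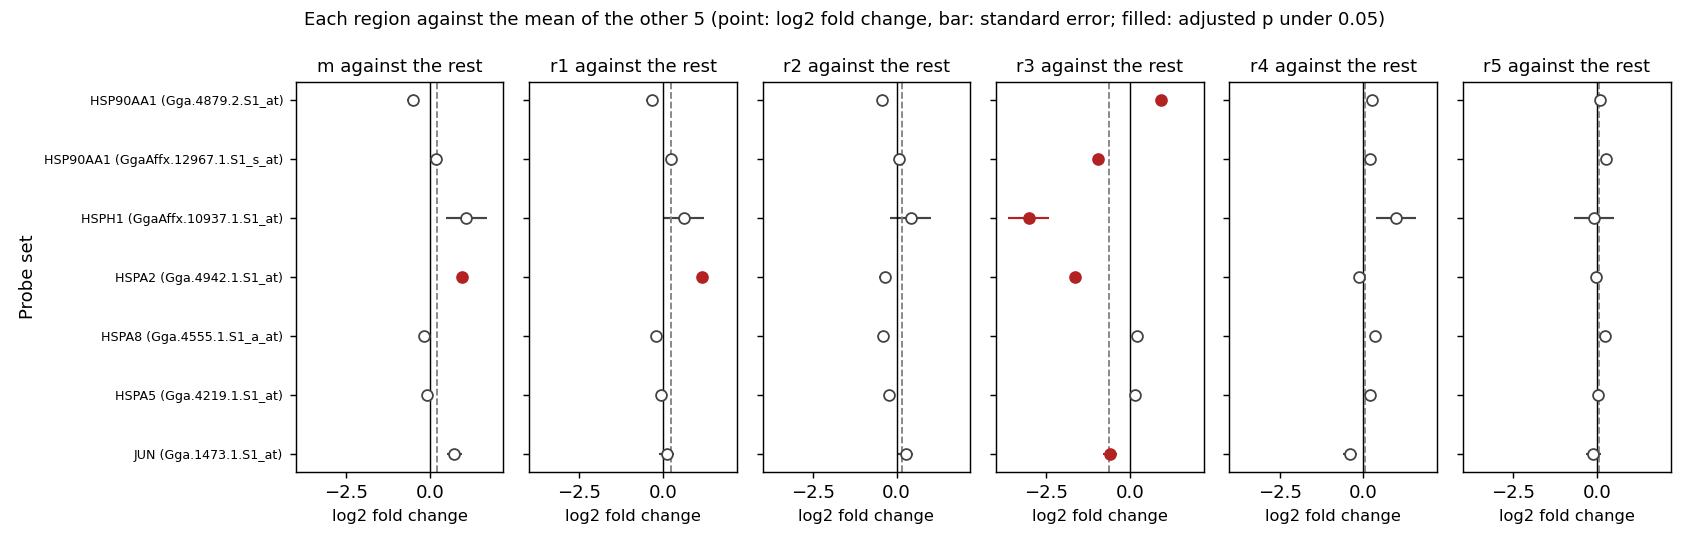
Log2 fold change with its standard error (limma) of each tested probe set for every region compared with the average of the remaining 5; filled points passed an adjusted p of 0.05, and the dashed line is the median of all 21731 probe sets. In r3 that median was −0.63, close to JUN, while HSPH1 and HSPA2 lay below it and the first HSP90AA1 probe set above it.

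Scaling set the apparent direction of several of these genes in r3. Without array scaling the median of all probe sets was 1.52 lower in r3 on the log2 scale, with 61.4% of probe sets called lower and 0.423% higher. The first HSP90AA1 probe set then no longer differed in r3 (−0.03, adjusted p = 0.949), and HSPA5 (−0.82, adjusted p = 0.0373) and HSPA8 (−0.75, adjusted p = 0.0399) were called lower, though all 3 lay above the median of all. With the trimmed mean as the scale, HSPA8 (0.78, adjusted p = 5.65e-04) and HSPA5 (0.71, adjusted p = 0.00123) were instead called higher in r3, beside a first HSP90AA1 probe set that was 1.5 higher (adjusted p = 9.6e-05). On that scale 18% of all probe sets were called higher in r3 and 23.6% lower. JUN in r3 went from −0.60 to −0.03 with the trimmed mean and 0.22 with quantile normalisation, neither past the threshold (adjusted p = 0.886 and 0.247), and HSPA8, at 0.21 with median scaling, to −0.23 with quantile normalisation (adjusted p = 0.0223). The sign of HSPA8, HSPA5 and JUN in r3 thus turned with the scale, and that of HSPA2, HSPH1 and the second HSP90AA1 probe set did not (−2.60, −3.99 and −1.93 without scaling, with adjusted p of 1.8e-06, 9.06e-07 and 1.78e-05).

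In m and r1 against r2 to r5, the median of all probe sets was 0.77 without scaling. HSPA2 exceeded it by more than a log2 unit (1.86, adjusted p = 6.2e-05), HSPH1 was 1.59 higher (adjusted p = 0.00858), and JUN, at 1.04 (adjusted p = 0.0221), and the second HSP90AA1 probe set, at 0.78 (adjusted p = 0.0254), lay near that median. HSPA8 in m and r1 was −0.25 with median scaling, 0.27 without scaling (adjusted p = 0.397) and −0.47 with the trimmed mean (adjusted p = 0.00527). HSPA2 in m alone kept its call (1.38, adjusted p = 0.0344) and in r1 alone did not (1.59, adjusted p = 0.0581). The deposited HSPA2 signals themselves, untouched by any scaling, were 409 to 702 on the 4 arrays of m and r1, 162 to 314 on the 6 of r2, r4 and r5, and 38.4 and 59.2 on those of r3, and did not overlap between these sets of regions. Thus m and r1 exceeded the other regions with and without scaling for HSPA2, while the lower level of the first HSP90AA1 probe set in m and r1 was no longer called without it (−0.02, adjusted p = 0.966).

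**Figure D4:**
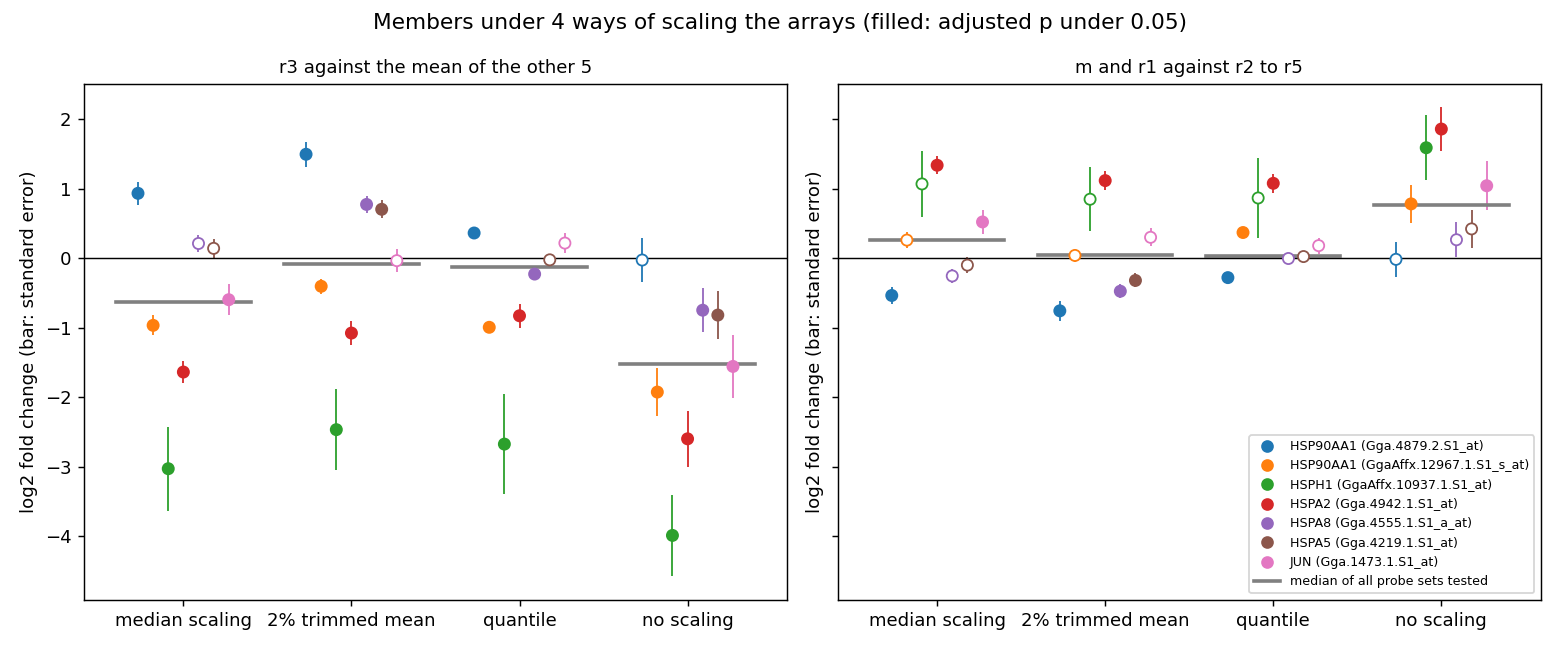
Log2 fold change of the 7 tested probe sets in r3 against the other regions and in m and r1 against r2 to r5, under 4 ways of scaling the arrays; grey marks the median of all probe sets under the same scaling. HSPA2 stayed below that median in r3 and above it in m and r1 under each of the 4, while the first HSP90AA1 probe set went from −0.03 unscaled to 1.5 with the trimmed mean in r3.

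The other genes of the same responses were counted from 4 lists on the median-scaled signals. Each gene was read by its brightest probe set alone, and whether its other probe sets agreed is not given here. In r3, 9.16% of genes with several tested probe sets had calls in both directions. A direction in r3 below is therefore that of 1 probe set. With the trimmed mean the median of all probe sets was −0.08 in r3 and 0.05 in m and r1, so that every list moves with the choice of scale. Of 40 heat shock and cytosolic chaperone genes that are not among the 7, 31 were tested, and in r3 15 were lower and 3 were higher, where 39.7% and 7.12% of all probe sets were. The lower ones included CRYAB, a small heat shock protein (log2 fold change −5.33), HSPA14, an HSP70 that works at the ribosome (−2.68), HSP90AB1, the constitutive HSP90 (−2.38), and HSF2, a heat shock factor (−1.86). CRYAB and HSPA14 were under the array median on r3 set 1 (3.47 and 4.37), so the size of their difference depends on a dim signal. The 3 higher were HSPB9 (1.73), the mitochondrial chaperone HSPD1 (1.14) and BAG1 (0.87), a co-chaperone that recharges HSP70 with nucleotide. In m and r1, 6 of the 31 were higher and 2 lower, where 20% and 5.68% of all probe sets were. HSPA14 (1.38), CRYAB (1.36), HSF2 (0.97) and HSP90AB1 (0.80) were higher. The median of the 31 was 0.15, against 0.27 for all probe sets. The low r3 arrays are part of this comparison. CRYAB averaged 287 (m) and 331 (r1), below r5 (1373) and above r2 (227), r4 (92.3) and r3 (9.99). HSP90AB1 averaged 629 (m) and 683.5 (r1), beside 638 (r2), 503 (r4), 549 (r5) and 120.5 (r3). Counts for the 31 without r3 are not given here. Outside the r3 contrast and that of m and r1, 1 of the 31 was higher in r5, where 1.14% of all probe sets were. This was CRYAB, 3.68 higher (adjusted p = 7.11e-04), with scaled signals of 1311 and 1435 there and 3.47 and 16.5 in r3.

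Of 29 ER chaperone and unfolded protein response genes besides HSPA5, 24 were tested. In r3, 15 were lower (39.7% of all probe sets), among them CRELD2 (−2.65), the HSP110 relative HYOU1 (−2.13) and the calcium-binding chaperone CALR (−2.08), and 2 were higher (7.12% of all), the disulfide isomerase PDIA4 (2.12) and the transcription factor XBP1 (1.51). In m and r1, 8 of the 24 were higher (20% of all probe sets), among them HYOU1 (1.42), DNAJB11 (1.30), CALR (1.65) and HERPUD1 (1.37), and 3 were lower (5.68% of all). CRELD2 was under the array median on r3 set 1, CALR on r3 set 2 and both r4 arrays, and HERPUD1 on every array of r3, r4 and r5, so that the sizes of these 3 genes' differences depend on dim signals. HYOU1 was higher in m (1.18, adjusted p = 0.00131) and in r1 (1.09, adjusted p = 0.00513) separately, whereas HSPA5, the central gene of this response, had no call in any region with median scaling. The median of the 24 in m and r1 was 0.42 and in r3 −0.73.

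Of 46 immediate early and early response genes besides FOS and JUN, 25 were tested, 8 were under the filter and 13 were not named by the annotation. In r3, 15 were lower (39.7% of all probe sets), with the mRNA decay factor ZFP36L2 at −1.96, CSRNP1 at −1.90 and DUSP5 at −1.54, and ARC alone was higher (0.98, 7.12% of all probe sets). DUSP1, a phosphatase of MAP kinases, was also lower in r3, but it read 0.276 and 7.30 there, the former under the floor, so no size is given. In m and r1, 6 were higher and 0 lower (20% and 5.68% of all probe sets), with DUSP6 at 1.21, ZFP36L1 at 0.84, and DUSP1 and MAFF, each with an array at the floor among r2 to r5. DUSP6 is also a known target of FGF signalling, which is active at the boundary between midbrain and hindbrain. Without r3, 3 of these genes were higher and 4 lower in m and r1, where 13.7% and 5.97% of all probe sets were. Single regions showed other calls. In r4, 3 of the 25 were higher (0.69% of all probe sets) and 0 lower (0.456%). The 3 were MYC (1.63, adjusted p = 0.047), GADD45G (1.08, adjusted p = 0.0332) and RHOB (0.63, adjusted p = 0.0371). In r5, 1 was higher (1.14% of all) and 1 lower (0.566%). DUSP5, which damps ERK signalling, was 3.60 higher (adjusted p = 1.48e-04), and ZFP36L1 was 0.81 lower (adjusted p = 0.011). These calls were not tried under another scaling. Of 20 oxidative stress genes, 15 were tested, and in r3 9 were lower (39.7% of all probe sets) and 0 higher (7.12%), among them GPX1 (−1.95) and NFE2L2 (−1.39). SQSTM1, at 0.966 and 19.2 in r3, and the metallothionein MT3, at 0.587 and 1.40, were also lower there, with no size given since signals lay at or near the floor. In m and r1, 5 were higher (20% of all), with MT4 at 1.30, GCLC at 0.82, GPX1 at 0.63 and MT3, and 1 was lower (5.68%). GPX1 had means of 922 in m and 883 in r1, against 785 to 827 in r2, r4 and r5 and 226 in r3.

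**Figure D5:**
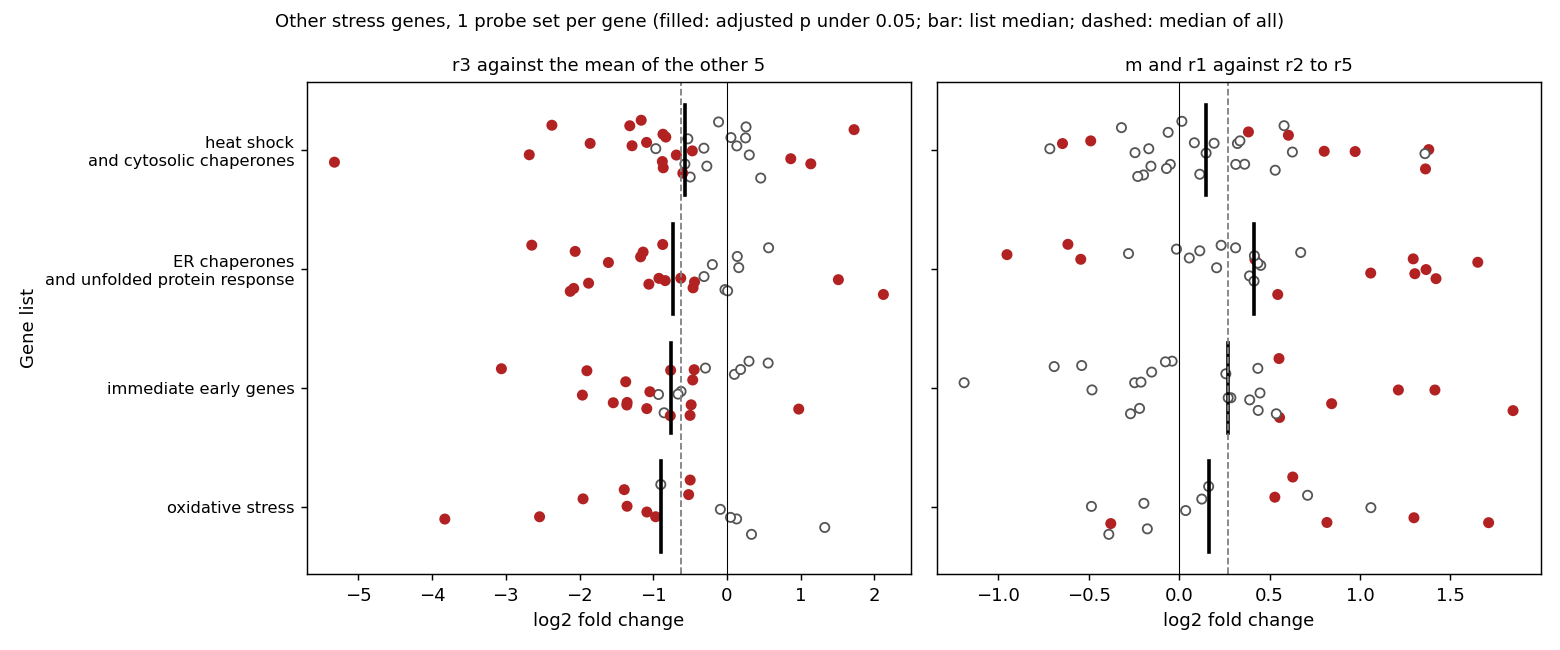
Log2 fold change of the tested genes of the 4 stress lists, without the 7 genes themselves, in r3 against the other regions and in m and r1 against r2 to r5; filled points passed an adjusted p of 0.05 and the dashed line is the median of all probe sets. The medians of the lists were −0.57 to −0.90 in r3 and 0.15 to 0.42 in m and r1, around those of all probe sets at −0.63 and 0.27.

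The tissue was checked against markers of the neural tube and of what adjoins it, as summed scaled signals. The 6 neural tube markers summed to 2866 and 3099 on the arrays of r3, where HSPA2 was lowest, to 1783 to 2177 on those of r4 with r5, and to 1317 to 1616 on the remaining 6. PAX6 ran from 6.01 in m to 1000.1 in r3, and SOX3 from 33.1 to 220 over the arrays. The markers did not move together. PAX6, CDH2 and NES were called higher in r3 (log2 fold change 3.43, 0.97 and 0.47). SOX3 was called lower in r3 (−1.11, adjusted p = 0.00962) and higher in m (1.065, adjusted p = 0.0493). The sum is therefore no measure of how much neural tissue an array held. The markers NES (754 to 1245) and CDH2 (305 to 992) were bright on every array, while SOX2 (0.252 to 16.1) and NCAM1 (0.926 to 16.7) were dim, with signals on both sides of the array median. The 3 surface ectoderm markers that the annotation named summed to 697 to 703 in m and r1, 346 to 361 in r2, 224 to 236 in r3, and 269 to 351 over the arrays of r4 with r5, and thus moved with HSPA2. Nearly all of that sum was EPCAM (202 to 679), an adhesion protein of epithelia, while KRT7 (3.32 to 34) and TFAP2C (0.806 to 13.9) were low. Blood and endothelium markers were lowest in m and r1 (23.6 to 47.5) and highest in r2 (162 to 164), and mesenchyme markers summed to 138 to 183 in m and r1, 277 to 286 in r2, 188 to 223 in r3 and 146 to 386 in r4 and r5. Outside r3, most of the mesenchyme sum was COL1A2 (29.4 to 279 over all arrays). In r3 COL1A2 read 29.4 and 79.8, and TWIST1 read 127 and 60.2. TWIST1 (log2 fold change 2.91, adjusted p = 0.00116) and FOXC2 (2.52, adjusted p = 0.00428) were higher in r3. COL1A2 was lower there (−1.62, adjusted p = 0.00107), and PRRX1 had no call (−0.44, adjusted p = 0.306). TWIST1 was under the array median on m set 2, and FOXC2 on m set 1, both r1 arrays and r5 set 2. The sizes of the TWIST1 and FOXC2 differences therefore depend on dim signals. The part of these markers in the HSPA2 result was not tested.

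Finally, the genes whose scaled log2 signal was most like that of each gene over the 12 arrays were listed, by Pearson r, as a description of arrays that share regions and scaling. For HSPA2 they were DYRK3 (0.96), CADPS (0.96) and GLT1D1 (0.96). For the first HSP90AA1 probe set they were HSPD1 (0.996), UQCRHL (0.99) and FKBP3 (0.99). HSPD1 itself read 932 to 1153 on the arrays of m, r1 and r2 and 3316 and 2083 in r3. HSPH1 was most like CYB5A (0.99), AZIN1 (0.99) and POGLUT1 (0.99), HSPA8 was most like the ribosomal protein gene RPL8 (0.98), the initiation factor gene EIF2S2 (0.98) and RPS10 (0.97), and HSPA5 was most like RBBP4 (0.95), ATP5PB (0.94) and ATP5O (0.92). JUN was most like SRPRA (0.94), NIPAL3 (0.94) and PRMT7 (0.93). Among the 7 genes themselves, r was 0.86 between HSPA8 and HSPA5, 0.86 between the second HSP90AA1 probe set and HSPH1, and −0.81 between the first HSP90AA1 probe set and JUN.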

How the data were processed

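The authors hybridised biotin-labelled cDNA, amplified from total RNA of 12 tissue pools in parallel, to Affymetrix Chicken GeneChips and deposited 1 MAS5 signal for each of 38535 probe sets, an intensity on a linear scale, unscaled between arrays (MAS5 is named in the submitters' processing notes, with no genome build). The 96 AFFX probe sets were used only as controls. No 2 arrays were identical. From the deposited intensities, each array was scaled to a median of 5.90, values under 1.03 (the pooled percentile 20) were set to it, and log2 was taken, which understates changes near that floor. Probe sets above the array median on both arrays of a region were kept (21731). limma 3.58.1 in R 4.3.3 (lmFit, eBayes with trend, 6 residual and 6.00 prior degrees of freedom) gave an F test and 7 contrasts, adjusted by Benjamini-Hochberg over all probe sets, at 0.05. The p-values measure the spread between 2 pools per region. Simulated arrays with known changes were used to test the code. Figures used matplotlib 3.10.9 in Python 3.11.15.

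Symbols came from the platform annotation (27168 probe sets with 1 symbol, 177 with several, 11094 with none), and the RefSeq gene table changed 0 of the 7. A gene was led by its brightest probe set. From each list up to 4 of the largest changes past the threshold in a contrast are named by rule, and XBP1, ARC, the higher genes of r3, and the genes given for r4 and r5 alone were named after their values were seen. The members and lists were chosen with earlier results of these data known. The paper gives a stage and Dispase time that differ in part from the labels.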

Additional observations from a re-analysis of the deposited data

How the results depend on the processing

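Counts here are of the 7 tested probe sets, or of 9 where the filter on low signals was left out. The shares of all probe sets under each setting are not given beside them. The counts therefore describe only how the calls depend on the processing. The F test called 5, but 3 with quantile normalisation, 3 with no filter on low signals, 3 at an adjusted p under 0.01, 1 with no intensity trend in limma, 1 with the 3′ to 5′ ratio of the control transcripts as a covariate, and 2 within m, r1 and r2 only. It called 4 without scaling, with the trimmed mean or without both r3 arrays, and 6 with a pseudocount of 16. A plain analysis of variance called 4, adjusted or not. Higher in m were 1, but 2 with a pseudocount of 16 or a filter at a deposited signal above 20, 3 with array weights and 0 with the covariate, and lower in m were 0, but 1 with the trimmed mean, quantile normalisation, the pseudocount, the filter at 20 or array weights. Higher in r1 were 1, but 0 without scaling and 0 with the covariate, and lower in r1 were 0, but 1 with array weights. Lower in r2 were 0, but 2 with array weights and 1 without both r3 arrays. Higher in r3 were 1, but 0 without scaling, 3 with the trimmed mean and 0 with the covariate. Lower in r3 were 4, but 6 without scaling and 0 with the covariate. They were 3 with the trimmed mean, no filter, no trend or array weights. Without both r3 arrays, 2 were higher and 1 lower in r4, and 1 was lower in r5. Higher in m and r1 were 2, but 4 without scaling, 3 with the pseudocount or array weights, and 0 with the covariate. They were 1 each with the trimmed mean, no filter, no trend, no r3 arrays, and m, r1 and r2 only. Lower in m and r1 were 1, but 3 with the trimmed mean, 2 with the filter at 20 or array weights, and 0 without scaling, with no trend, with the covariate, and within m, r1 and r2 only.

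Leaving out 1 array at a time, the F test called 3 to 6, and higher and lower counts ran from 0 to 3 and 0 to 1 in m, 0 to 2 and 0 to 1 in r1, 0 to 1 and 0 to 2 in r2, 1 and 3 to 4 in r3, 0 to 1 and 0 in r4, 0 and 0 in r5, and 1 to 4 and 0 to 2 in m and r1. The call of the first HSP90AA1 probe set in m and r1 was lost without m set 1 (adjusted p = 0.057) or r1 set 1 (0.0607).

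Of the values that were called, those that turned sign were the first HSP90AA1 probe set in r3 without scaling (−0.025, adjusted p = 0.949) and in m and r1 within m, r1 and r2 only (0.007, 0.984), HSPH1 in r3 with the covariate (0.72, 0.975), and JUN in r3 with quantile normalisation (0.22, 0.247). HSPA8 and HSPA5, not called in these contrasts, also turned sign under some alternatives, for example without scaling, in r3 to −0.75 and −0.82 and in m and r1 to 0.27 and 0.42. The cause was not tested. With the covariate, 0 contrasts of the 7 were called (unadjusted p under 0.05 for 1 each in m, r1, r3, r4 and m with r1, the share of all probe sets not counted). That ratio differs chiefly between regions, so its slope rests on the gaps within them, and the fit leaves little to test.

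With the set number as a replicate block, no call of the 7 changed (F test adjusted p 2.68e-04 for HSPA2). Same-numbered arrays did not deviate together (r of −0.04 to 0.07, 0 of 15 pairs over 0.1), so no common effect of the set number was seen. This check cannot show whether same-numbered arrays shared embryos or a collection occasion, which the labels do not give. The fits within m, r1 and r2 only were chosen after seeing the data, as were the list counts without r3. With 2 arrays a region, precision is limited by the number of pools, and signals under the array median (FOS and the second HSPH1 probe set) could not be compared.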
